A study of Homo sapiens with 8 samples.

Results

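Interferon-stimulated genes are the genes that cells switch on when interferon, a secreted antiviral cytokine, binds its receptor. The 44 genes described here were taken as a list of symbols and looked up in the count table by Ensembl identifier. All 44 were found among the 58336 genes counted. They were measured by RNA sequencing in 8 libraries. All of these came from SUM159 cells, a mesenchymal human line established from a triple-negative breast tumour, in populations named by their level of ITGB4, the integrin beta-4 subunit of epithelial attachment to the basement membrane.

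The lung-recovered group held 3 libraries. Its cells were ITGB4-low clone 1 cells injected through the tail vein into mice that had been given bleomycin, which breaks DNA and causes lung injury, by way of the trachea. Harvested lungs were made into a suspension that stayed in dishes overnight, and tdTomato-positive (red fluorescent) tumour cells were then sorted on the following day. The ITGB4-low group held 3 libraries of clone 1 grown in dishes, and the ITGB4-high group held 2 libraries of ITGB4-high cells grown in dishes. All ITGB4-low cells came from 1 clone, so a property of that clone and a property of low ITGB4 cannot be told apart. Injection, growth in the lung, bleomycin, dissociation, overnight culture and sorting separate the lung-recovered cells from the dish-grown clone together and cannot be told apart either. Lung-recovered cells from mice without bleomycin were not analysed here, and no source used here gives the strain and age of the mice.

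Type I interferons (IFN-alpha, IFN-beta and relatives) signal through IFNAR1 and IFNAR2 to the kinases JAK1 and TYK2, which phosphorylate STAT transcription factors. With IRF9, STAT2 enters the complex ISGF3, which binds the interferon-stimulated response element (ISRE) in promoters. IFN-gamma acts through IFNGR1 and IFNGR2 on promoters with the gamma-activated sequence (GAS). Several of the genes can also be switched on without interferon, by IRF3, IRF1 or NF-kB, and many tumour lines keep some of them active in culture.

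The libraries held 20.41 to 27.22 M counts. ITGB4 stood at 401, 376 and 407 CPM, counts scaled to library size, in the lung-recovered libraries, against 5.29, 7.46 and 9.13 CPM in the ITGB4-low libraries, and at 420 and 376 CPM in the ITGB4-high libraries. The origin of the lung-recovered cells from the ITGB4-low clone, given by the labels, is thus not visible in their ITGB4 level. For CD44 and PTPRC, chosen from the marker lists after their values were seen, the lung-recovered libraries lay with the clone. CD44 averaged 663 CPM in lung-recovered libraries, 669 CPM in ITGB4-low libraries and 446 CPM in ITGB4-high libraries. PTPRC had 14, 22 and 19 counts in lung-recovered libraries, 20, 14 and 24 in ITGB4-low libraries and 0 in both ITGB4-high libraries. For NKX2-1, a lung epithelial marker chosen in the same way, the lung-recovered libraries lay with the ITGB4-high cells instead. NKX2-1 had 3, 0 and 2 counts in lung-recovered libraries, 20, 25 and 24 in ITGB4-low libraries and 0 and 1 in ITGB4-high libraries. SUM159 markers (VIM, CD44, AXL, FN1, ZEB1 and SNAI2) were present in all libraries, and the estrogen and progesterone receptor genes ESR1 and PGR together gave at most 0.117 CPM. The summed SUM159 markers stood at 8111 to 8721 CPM in lung-recovered libraries, 11160 to 11370 CPM in ITGB4-low libraries and 7296 to 7710 CPM in ITGB4-high libraries, with FN1, AXL and ZEB1 lower in lung-recovered than in ITGB4-low cells. Markers of other lung cell types were counted on human genes, where mouse reads land only if the sequences are alike. The 8 macrophage and myeloid markers summed to 7.99 to 8.95 CPM in lung-recovered libraries, 6.40 to 6.75 CPM in ITGB4-low libraries and 3.66 to 4.94 CPM in ITGB4-high libraries. Of the 4 that could be tested, 1, MARCO, was higher in lung-recovered than in ITGB4-low cells, and LYZ had 0 counts in all lung-recovered libraries. The 6 lymphocyte markers summed to at most 0.126 CPM in lung-recovered libraries and at most 0.201 CPM in ITGB4-low libraries, and the erythroid markers had 0 counts in the lung-recovered libraries. Endothelial markers summed to 2.56 to 3.12 CPM in lung-recovered and 3.11 to 4.97 CPM in ITGB4-low libraries, and lung epithelial markers to 0.709 to 1.18 CPM in lung-recovered and 1.60 to 1.93 CPM in ITGB4-low libraries. The part of other cells in the results was not tested.

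Of the 44 genes, 35 matched an entry in the RefSeq promoter table for build GRCh38.p14, which gives 250 bases before to 50 bases after each annotated start; DDX58 matched under its current symbol RIGI. The 9 others were OAS2, OASL, IFIT2, MX2, USP18, GBP2, IRF7, IFITM2 and TRIM22. Promoters were searched on both strands for GAAANNGAA, the core of the ISRE, for TTCNNNGAA, the core of the GAS, and for the kappa-B consensus bound by NF-kB. The 4 promoters that follow belong to the genes with the largest rise in lung-recovered cells among those whose promoter held the ISRE core, which is in capitals. They lie on the plus strand at chr14:94110486-94110785 (IFI27), chr11:313790-314089 (IFITM1), chr1:78620198-78620497 (IFI44L) and chr12:112938224-112938523 (OAS3).
IFI27: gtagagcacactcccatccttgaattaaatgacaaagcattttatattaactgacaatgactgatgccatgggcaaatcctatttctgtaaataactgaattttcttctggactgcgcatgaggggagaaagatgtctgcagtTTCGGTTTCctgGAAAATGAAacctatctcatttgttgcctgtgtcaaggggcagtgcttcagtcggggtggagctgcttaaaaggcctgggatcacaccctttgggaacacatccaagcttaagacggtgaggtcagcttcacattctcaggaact
IFITM1: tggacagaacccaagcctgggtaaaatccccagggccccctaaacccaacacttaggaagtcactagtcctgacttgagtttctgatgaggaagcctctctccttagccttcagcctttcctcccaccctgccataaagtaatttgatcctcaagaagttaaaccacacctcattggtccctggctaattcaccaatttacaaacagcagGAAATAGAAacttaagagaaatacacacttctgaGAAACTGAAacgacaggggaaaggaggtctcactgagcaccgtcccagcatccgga
IFI44L: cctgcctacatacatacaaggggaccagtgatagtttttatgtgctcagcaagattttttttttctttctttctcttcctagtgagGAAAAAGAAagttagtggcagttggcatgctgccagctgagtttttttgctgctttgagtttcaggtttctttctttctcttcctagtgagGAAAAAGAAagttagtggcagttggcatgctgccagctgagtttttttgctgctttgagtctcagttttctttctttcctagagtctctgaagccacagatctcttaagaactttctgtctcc
OAS3: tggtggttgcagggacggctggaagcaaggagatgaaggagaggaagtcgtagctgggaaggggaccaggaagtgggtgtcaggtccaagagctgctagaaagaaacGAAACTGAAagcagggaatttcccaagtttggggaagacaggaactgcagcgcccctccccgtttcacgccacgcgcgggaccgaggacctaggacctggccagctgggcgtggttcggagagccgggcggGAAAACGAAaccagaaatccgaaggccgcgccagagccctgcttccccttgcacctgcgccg

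The start base was numbered 0. IFI27 held the core at positions -107 and -95, on opposite strands and overlapping a GAS core that begins at -101. IFITM1 held it at -40 and -6, the second overlapping a GAS core. IFI44L held it at -164 and -73, and OAS3 held it at -143 and -12. The promoter of XAF1, the gene with the largest rise of all, is shown because its window (chr17:6755796-6756095, plus strand) held no ISRE core. It held the kappa-B consensus, in capitals, from -103 to -94.
XAF1: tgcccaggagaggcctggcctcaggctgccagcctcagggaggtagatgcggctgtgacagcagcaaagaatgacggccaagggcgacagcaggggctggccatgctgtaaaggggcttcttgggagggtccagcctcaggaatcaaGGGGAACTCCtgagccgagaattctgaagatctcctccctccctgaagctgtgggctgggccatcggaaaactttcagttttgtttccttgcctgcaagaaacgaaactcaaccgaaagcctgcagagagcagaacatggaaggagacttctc

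Genes that were not called in lung-recovered cells carried the same core. The windows of 29 bases around the first core of IFIT1, IFIT3, ISG15, MX1, IFI6 and BST2 are shown for comparison, chosen after their values were seen, each read on the strand that spells the core. They lie at chr10:89392498-89392526 (minus strand), chr10:89327832-89327860 (minus), chr1:1013374-1013402 (plus), chr21:41420559-41420587 (plus), chr1:27672330-27672358 (minus) and chr19:17405742-17405770 (minus).
IFIT1: accgaaagggGAAAGTGAAactaaagcta
IFIT3: ttgggaggagGAAAATGAAacctaacggc
ISG15: catgcctcggGAAAGGGAAaccgaaactg
MX1: gagcagaaatGAAACCGAAactgaattgt
IFI6: ggagagagggGAAAATGAAactctgcaga
BST2: tcctttctggGAAACTGAAactgaaaacc

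The ISRE core stood in at least 1 listed promoter of 26 of the 35 genes (74.3%), against 9.86% of all 27305 genes in the table. Split by the outcome in lung-recovered against ITGB4-low cells, it stood in 7 of 8 genes that were higher, 2 of 2 that were lower, 13 of 19 that were not called and 4 of 6 that were too low to test. Without an entry, and so outside this split, were the higher genes OAS2, OASL, MX2, IRF7, IFITM2 and TRIM22. GBP2, which was lower, and IFIT2 and USP18, which were not called, were outside it as well. The GAS core stood in 12 of the 35 (34.3%) against 9.38% of all genes. The kappa-B consensus stood in 7 of the 35 (20%) against 7.09% of all genes, among them 4 of the 8 higher genes (XAF1, OAS3, IFIH1 and IFITM3) and 3 of the 19 not called. Of the 56 ISRE cores counted over all starts, 8 overlapped another motif. A site in the windows of more than 1 start was counted each time, as in IFI27 and IFI44. PARP9 and DTX3L share a core, as do RSAD2 and CMPK2. These are matches of letters, given as a description with no test; a window without a match says only that those letters are not in it.

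**Figure D1:**
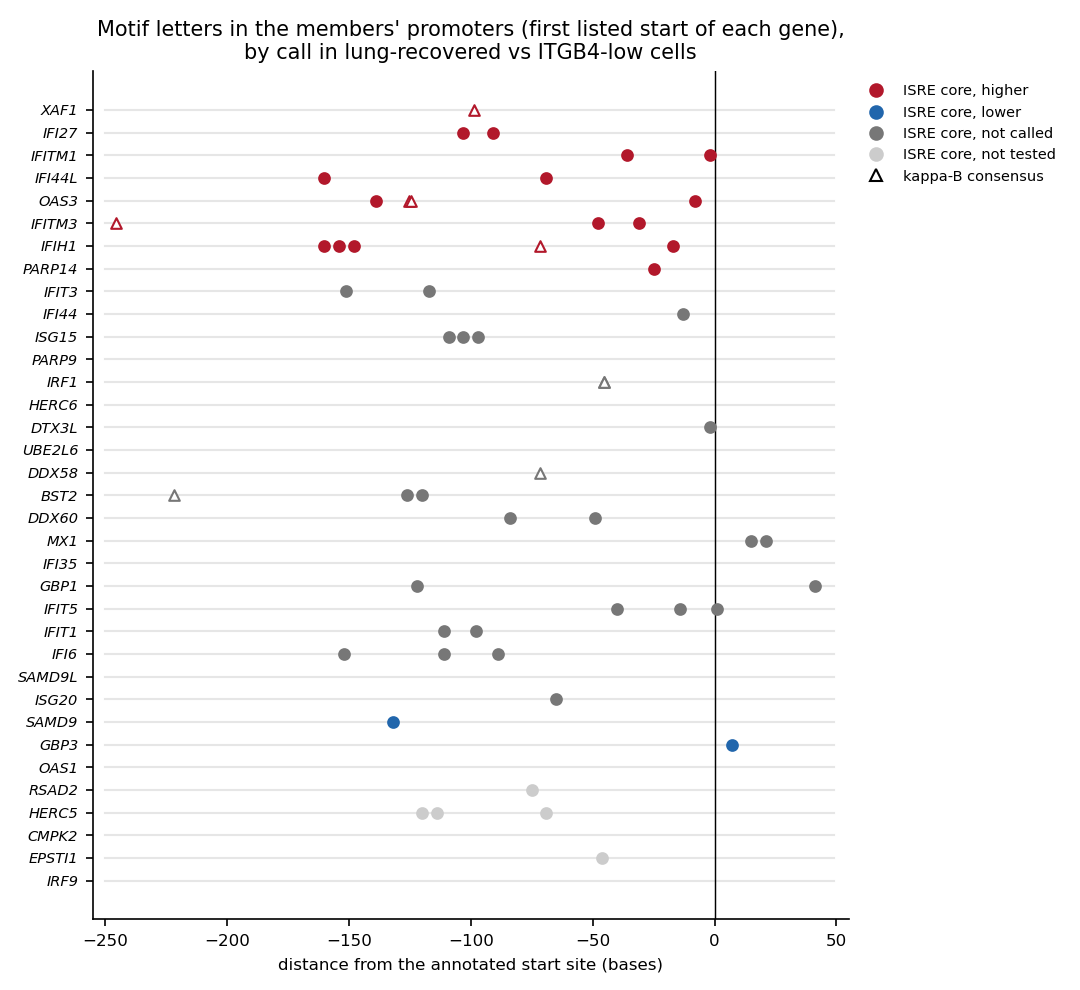
Position of ISRE cores (filled circles) and kappa-B consensus matches (open triangles) in the promoters of the 35 genes with an entry, in bases from the annotated start, coloured by the call in lung-recovered against ITGB4-low cells; the first listed start of each gene is drawn. Filled circles stand in the rows of higher, lower and uncalled genes alike, and PARP9 and CMPK2 look empty here because their core lies at another start.

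Lung-recovered cells carried more RNA of some interferon-stimulated genes than the same clone in dishes, while others did not differ detectably or were lower. XAF1, a pro-apoptotic interferon target, went up most, followed by OAS2, IFI27, TRIM22, IFITM1, MX2 and OASL, all at 2-fold or more. The IFIT genes and the ISG15 system, which are usually among the most interferon-responsive genes, had no called member, and GBP2, GBP3 and SAMD9 were lower. Because the samples were bulk RNA, fewer cells carrying a transcript and less of it per cell cannot be told apart.

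Of the 44 genes, 38 passed the filter on low counts, which asks for about 10 counts in at least 2 libraries. A gene high in only 1 group passes through that group, so counts over tested genes are a description and not support. By edgeR's quasi-likelihood test with Benjamini-Hochberg adjustment over all 15220 tested genes and an adjusted p threshold of 0.05, 14 of the 38 (36.8%) were higher in lung-recovered cells, where 14.7% of all tested genes were. 3 of the 38 (7.89%) were lower, where 15.4% of all tested genes were, and 21 were not called. At 2-fold or more, 7 of the 38 were higher, against 3.20% of all tested genes. The median log2 fold change was 0.15 over the 38 genes and 0.0003 over all tested genes. In 22 of the 38 genes the values of lung-recovered and ITGB4-low libraries did not overlap, against 43.3% of all tested genes. All 44 genes together summed to 992, 1008 and 999 CPM in lung-recovered libraries, against 762, 801 and 805 CPM in ITGB4-low libraries, and to 866 and 837 CPM in ITGB4-high libraries. Most of the difference between the first 2 groups came from IFITM3, with a mean of 288 CPM in lung-recovered and 191 CPM in ITGB4-low libraries, and IFITM1, with 74.2 CPM in lung-recovered and 27.3 CPM in ITGB4-low libraries.

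**Figure D2:**
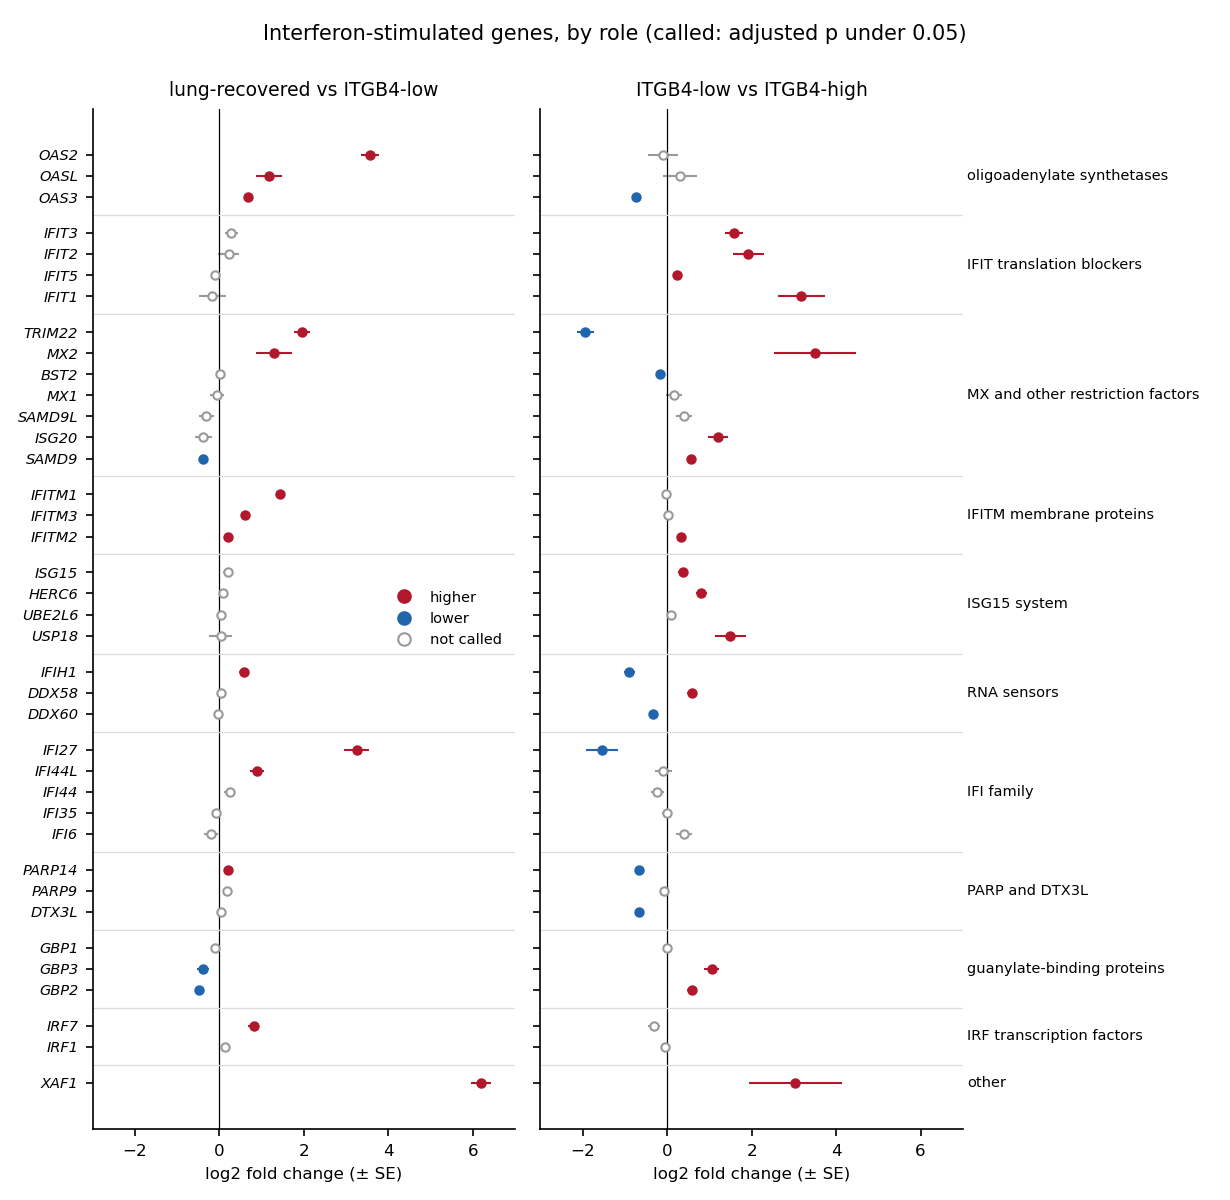
Log2 fold change (point) with its standard error (line) of the 38 tested genes, grouped by role, in lung-recovered against ITGB4-low cells (left) and ITGB4-low against ITGB4-high cells (right); red, higher; blue, lower; open, not called. On the left the 14 higher genes run from 0.21 to 6.19, and the IFIT rows are open on the left and red on the right.

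XAF1 (ENSG00000132530, hg38 chr17:6755447-6775647) stood at 15.1, 12.8 and 15.9 CPM in lung-recovered libraries, against 0.146, 0.375 and 0.0805 CPM in ITGB4-low libraries, and at 0.0377 and 0 CPM in ITGB4-high libraries. Every lung-recovered library was far above every dish-grown library. The log2 fold change in lung-recovered against ITGB4-low cells was 6.19 (SE 0.25; adjusted p = 1.33e-13, edgeR). PRAL, which overlaps XAF1 on the opposite strand, had 0 counts in every group.

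The oligoadenylate synthetases make a second messenger on contact with double-stranded RNA, which sets off RNA decay. All 3 that could be tested were higher in lung-recovered cells. OAS2 stood at 6.68, 6.38 and 6.69 CPM in lung-recovered libraries, against 0.437, 0.469 and 0.724 CPM in ITGB4-low libraries. The groups were well apart, with a log2 fold change of 3.56 (SE 0.21; adjusted p = 7.45e-11, edgeR). OASL, a catalytically inactive relative that enhances RNA sensing, stood at 2.14, 1.94 and 1.73 CPM in lung-recovered libraries, against 0.389, 0.844 and 1.25 CPM in ITGB4-low libraries. Its groups did not overlap, though the ITGB4-low values were widely spread, and its log2 fold change was 1.18 (SE 0.31; adjusted p = 0.00598, edgeR). OAS3 was higher by a log2 fold change of 0.67, and OAS1, its neighbour on chromosome 12, had 3 counts over the lung-recovered libraries, 0 over the ITGB4-low and 2 over the ITGB4-high libraries and was not tested.

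IFI27, a mitochondrial and nuclear-membrane protein strongly induced by type I interferon, stood at 4.54, 6.57 and 5.04 CPM in lung-recovered libraries, against 0.923, 0.656 and 0.161 CPM in ITGB4-low libraries. All lung-recovered libraries were above all ITGB4-low libraries, with a log2 fold change of 3.25 (SE 0.29; adjusted p = 3.62e-08, edgeR). IFI44L, a feedback regulator of the response, was higher by 0.89 on the log2 scale. IFI44, beside it on chromosome 1, had a log2 fold change of 0.24 (edgeR adjusted p = 0.181), and IFI6 and IFI35 were not called either.

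**Figure D3:**
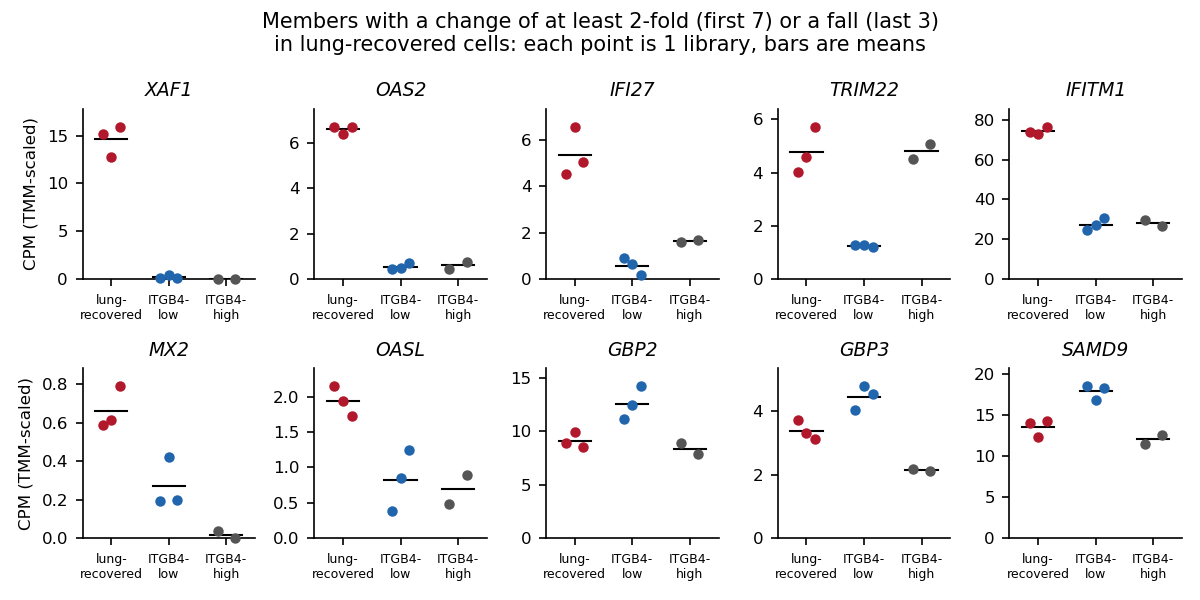
CPM (TMM-scaled, linear axis from 0) of the 7 genes higher by 2-fold or more and the 3 lower genes in lung-recovered cells; each point is 1 library, bars are group means. For XAF1 the lung-recovered points lie at 12.8 to 15.9 CPM and all others at 0.375 CPM or under, while GBP2, GBP3 and SAMD9 have the ITGB4-low points on top.

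Among the restriction factors, proteins that act directly on viruses, TRIM22 and MX2 were higher, SAMD9 was lower, and BST2, MX1, SAMD9L and ISG20 were not called. TRIM22, an E3 ligase of the tripartite motif family, stood at 4.03, 4.59 and 5.72 CPM in lung-recovered libraries, against 1.26, 1.27 and 1.21 CPM in ITGB4-low libraries, and at 4.53 and 5.07 CPM in ITGB4-high libraries. The ITGB4-low libraries were the low ones, and the lung-recovered and ITGB4-high ranges overlapped. The log2 fold change in lung-recovered against ITGB4-low cells was 1.95 (SE 0.19; adjusted p = 9.40e-08, edgeR). TRIM5, on the opposite strand of the same stretch, had more reads than TRIM22 and was higher by 0.52 on the log2 scale, and no source used here gives the strand setting of the counting, so the split of reads between them is uncertain.

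MX2, a dynamin-like GTPase that restricts lentiviruses, stood at 0.588, 0.615 and 0.790 CPM in lung-recovered libraries, against 0.194, 0.422 and 0.201 CPM in ITGB4-low libraries. The groups did not overlap, with a log2 fold change of 1.29 (SE 0.43; adjusted p = 0.0270, edgeR), but these values rest on 48 counts over the lung-recovered libraries and 18 over the ITGB4-low libraries. The call was lost with DESeq2 (adjusted p = 0.110) and in edgeR without ITGB4-low library 1 (adjusted p = 0.0816), ITGB4-low library 3 (0.106) or lung-recovered library 3 (0.109). With a filter of at least 1 CPM in 2 libraries, MX2 was not tested. MX1, the better-known influenza restriction factor next to it, had a log2 fold change of -0.05.

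SAMD9, a tRNA-cleaving poxvirus restriction factor, stood at 14.1, 12.3 and 14.3 CPM in lung-recovered libraries, against 18.5, 16.9 and 18.3 CPM in ITGB4-low libraries. All lung-recovered values were lower, and the log2 fold change was -0.40 (SE 0.08; adjusted p = 0.00103, edgeR). The guanylate-binding proteins GBP2 and GBP3, which are classic IFN-gamma targets that coat intracellular pathogens, were lower as well. GBP2 stood at 8.86, 9.93 and 8.50 CPM in lung-recovered libraries, against 11.1, 12.5 and 14.2 CPM in ITGB4-low libraries, with a log2 fold change of -0.48 (SE 0.11; adjusted p = 0.00157, edgeR). The GBP2 groups did not overlap. GBP3 stood at 3.74, 3.31 and 3.12 CPM in lung-recovered libraries, against 4.03, 4.78 and 4.55 CPM in ITGB4-low libraries, with a log2 fold change of -0.40 (SE 0.15; adjusted p = 0.0465, edgeR). The GBP3 groups did not overlap, yet the call lay at the threshold and was lost under 9 alternatives, 5 of which left out 1 library (adjusted p 0.0506 to 0.172 over the 9). GBP1 was not called, with a log2 fold change of -0.11. The 3 genes are close relatives in 1 cluster on chromosome 1, so shared reads make their split uncertain.

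The IFITM proteins sit in membranes and block viral entry. All 3 were higher in lung-recovered cells. IFITM1 stood at 73.6, 72.7 and 76.3 CPM in lung-recovered libraries, against 24.4, 26.9 and 30.5 CPM in ITGB4-low libraries, and the log2 fold change was 1.44 (SE 0.07; adjusted p = 1.68e-12, edgeR). The lowest lung-recovered library was thus far above the highest ITGB4-low library. IFITM3 stood at 287, 293 and 284 CPM in lung-recovered libraries, against 186, 197 and 188 CPM in ITGB4-low libraries, with a log2 fold change of 0.60 (SE 0.05; adjusted p = 2.75e-09, edgeR), again without overlap. IFITM2 was higher by 0.21 on the log2 scale, a call lost without lung-recovered library 3 (edgeR adjusted p = 0.0529). The annotated IFITM1 and IFITM2 genes overlap and the 3 are related in sequence, so the split of reads between them is uncertain. The other tested genes within 5 Mb of IFITM1 and IFITM2 had a median log2 fold change of 0.25 in the same comparison.

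The RNA sensor IFIH1 (MDA5), which signals through MAVS, was higher by 0.57 on the log2 scale, whereas DDX58 (RIG-I) and DDX60 had log2 fold changes of 0.04 and -0.04 and were not called. IRF7, the transcription factor that amplifies type I interferon production, was higher by 0.81 on the log2 scale; other tested genes within 5 Mb of it had a median of 0.21. IRF1, activated by IFN-gamma, had a log2 fold change of 0.13 (edgeR adjusted p = 0.117). PARP14, a mono-ADP-ribosyltransferase, was higher by 0.21 on the log2 scale, a call lost without lung-recovered library 1 (edgeR adjusted p = 0.0835), lung-recovered library 3 (0.0800) or ITGB4-low library 3 (0.0606). Its neighbours PARP9 and DTX3L, which act as a complex, were not called. The annotated PARP9 and DTX3L genes overlap on opposite strands at their starts, so the split of reads there is uncertain.

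The IFIT proteins bind viral RNA and block its translation. IFIT1, IFIT2, IFIT3 and IFIT5 had log2 fold changes of -0.17, 0.22, 0.28 and -0.11 in lung-recovered against ITGB4-low cells, and none was called. The ISG15 system consists here of the ubiquitin-like modifier ISG15, its conjugating enzyme UBE2L6, the HERC ligases and the deconjugating enzyme USP18. ISG15 had a log2 fold change of 0.19, UBE2L6 of 0.04, HERC6 of 0.09 and USP18 of 0.02, and none was called. Over the 21 genes not called the log2 fold changes ran from -0.38 (ISG20) to 0.28 (IFIT3), and a missed threshold does not show that they were equal.

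The 6 genes too low to test had few counts in each group. RSAD2 (viperin), which makes a chain-terminating nucleotide, had 13 counts over the lung-recovered libraries, 4 over the ITGB4-low and 4 over the ITGB4-high libraries. HERC5, the main ISG15 ligase, had 7 counts over the lung-recovered, 1 over the ITGB4-low and 0 over the ITGB4-high libraries. The ratio of lung-recovered to ITGB4-low for HERC5 was 6.53 with an exact 95% counting interval of 0.839 to 294, so no difference was detectable at this depth. EPSTI1 had 0 counts over the lung-recovered, 2 over the ITGB4-low and 1 over the ITGB4-high libraries, and CMPK2, a mitochondrial nucleotide kinase beside RSAD2, had 0, 0 and 1. IRF9, the DNA-binding subunit of ISGF3, had 21 counts over the lung-recovered, 14 over the ITGB4-low and 10 over the ITGB4-high libraries. The annotated gene AL136295.5 overlaps IRF9 on the same strand with 23, 20 and 17 counts in those groups, so the IRF9 counts are uncertain.

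In the dish-grown ITGB4-low clone, set against ITGB4-high cells, all 4 IFIT genes were higher, as were ISG15, HERC6 and USP18 of the ISG15 system, GBP2 and GBP3, and ISG20 and MX2, while TRIM22, IFI27, IFIH1, OAS3, PARP14, DTX3L, DDX60 and BST2 were lower. Of the 38 tested genes, 15 (39.5%) were higher in the ITGB4-low clone, where 28.6% of all tested genes were, and 8 (21.1%) were lower, where 27.6% of all tested genes were (edgeR, Benjamini-Hochberg adjusted). At 2-fold or more, 8 were higher, against 9.12% of all tested genes, and 2 were lower, against 3.95%. The median log2 fold change was 0.13 over the 38 genes and 0.0009 over all tested genes. Values of the 2 groups did not overlap in 24 of the 38 genes, and in 68.7% of all tested genes. With so much of the whole table called, the counts without a fold threshold show little that is particular to the 38 genes. The 8 genes higher at 2-fold or more were a larger share than in the whole table, but that share is a description and not support. XAF1 and MX2 among them passed the filter on low counts only through the lung-recovered libraries, which are outside this comparison. Both rest on 1 count each in ITGB4-high cells, and the ITGB4-high side had only 2 libraries.

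IFIT1 stood at 0.631, 0.985 and 1.57 CPM in ITGB4-low libraries, against 0.151 and 0.0779 CPM in ITGB4-high libraries, with a log2 fold change of 3.18 (SE 0.55; adjusted p = 5.65e-05, edgeR). IFIT2 stood at 1.65, 1.31 and 2.45 CPM in ITGB4-low libraries, against 0.302 and 0.662 CPM in ITGB4-high libraries, with a log2 fold change of 1.92 (SE 0.37; adjusted p = 1.74e-04, edgeR). IFIT3 stood at 3.06, 2.77 and 3.30 CPM in ITGB4-low libraries, against 1.09 and 0.935 CPM in ITGB4-high libraries, with a log2 fold change of 1.58 (SE 0.22; adjusted p = 5.22e-06, edgeR). In each of the 3 the ITGB4-low libraries were all above the ITGB4-high libraries. IFIT5 was higher by 0.24 on the log2 scale, a call lost without ITGB4-high library 1 (edgeR adjusted p = 0.0699). LIPA overlaps IFIT1, IFIT2 and IFIT3 on the opposite strand with 2216 counts over the ITGB4-low and 1162 over the ITGB4-high libraries, and was itself higher by 0.58 on the log2 scale, so a contribution of its reads to the IFIT counts cannot be told apart without the strand setting.

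USP18, which also binds the interferon receptor and dampens its signal, stood at 1.21, 1.97 and 1.25 CPM in ITGB4-low libraries, against 0.604 and 0.429 CPM in ITGB4-high libraries, with a log2 fold change of 1.5 (SE 0.36; adjusted p = 0.00153, edgeR). ISG20, an exonuclease, stood at 2.72, 2.53 and 2.86 CPM in ITGB4-low libraries, against 1.43 and 0.896 CPM in ITGB4-high libraries, with a log2 fold change of 1.21 (SE 0.24; adjusted p = 2.33e-04, edgeR). GBP3 stood at 4.03, 4.78 and 4.55 CPM in ITGB4-low libraries, against 2.19 and 2.10 CPM in ITGB4-high libraries, with a log2 fold change of 1.05 (SE 0.18; adjusted p = 3.79e-05, edgeR). The 2 groups did not overlap in any of these 3 genes. HERC6 was higher by 0.81 and ISG15 by 0.37 on the log2 scale, and the ISG15 call was lost without ITGB4-low library 3 (edgeR adjusted p = 0.0933) and without ITGB4-high library 2 (0.195).

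XAF1 and MX2 each had 1 count over both ITGB4-high libraries, against 13 and 18 counts over the ITGB4-low libraries. The ITGB4-low to ITGB4-high ratio was 10.2 for XAF1, with an exact 95% counting interval of 1.53 to 432, and 14.1 for MX2, with an interval of 2.22 to 586. The intervals are wide, since each ratio rests on 1 count. By edgeR the adjusted p was 0.0238 for XAF1 and 0.00486 for MX2. The XAF1 call was lost with DESeq2 (adjusted p = 0.0507), without ITGB4-low library 2 (edgeR adjusted p = 0.133) and without ITGB4-high library 2 (0.153), and the MX2 call was lost without ITGB4-high library 2 (0.0592). With only the groups compared, neither gene passed the filter. MX2 was not tested with at least 1 CPM in 2 libraries either. The other tested genes within 5 Mb of XAF1 had a median log2 fold change of 0.74 in this comparison.

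**Figure D4:**
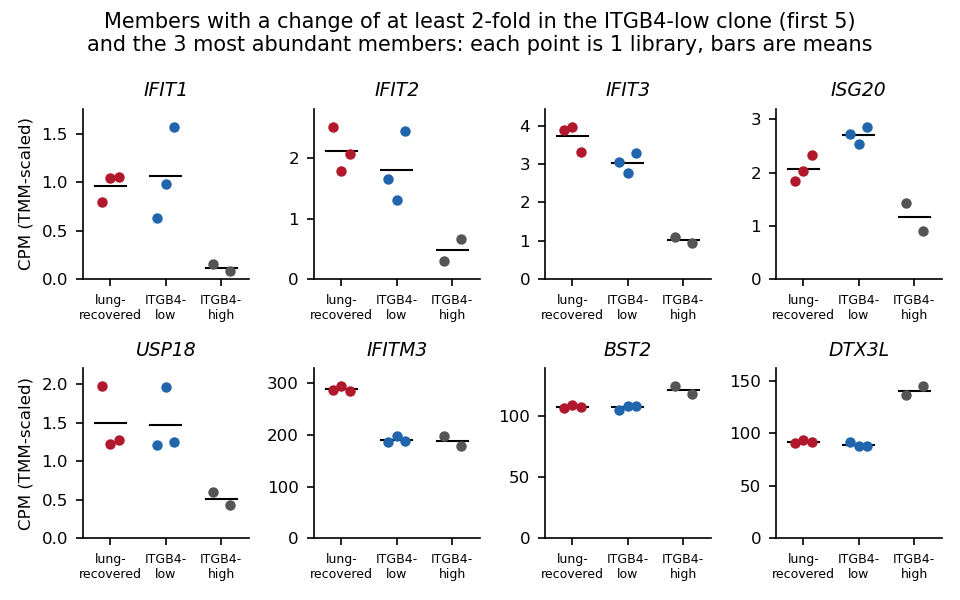
CPM (TMM-scaled, linear axis from 0) of 5 genes higher by 2-fold or more in ITGB4-low against ITGB4-high cells (IFIT1, IFIT2, IFIT3, ISG20, USP18) and of the 3 genes with the highest mean CPM not divided by length (IFITM3, BST2, DTX3L); each point is 1 library, bars are group means. The ITGB4-high points of the first 5 genes lie under all others, and those of DTX3L (136 and 145 CPM) lie above all others.

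On the lower side, TRIM22 stood at 1.26, 1.27 and 1.21 CPM in ITGB4-low libraries, against 4.53 and 5.07 CPM in ITGB4-high libraries, with a log2 fold change of -1.94 (SE 0.20; adjusted p = 8.65e-08, edgeR). IFI27 stood at 0.923, 0.656 and 0.161 CPM in ITGB4-low libraries, against 1.58 and 1.68 CPM in ITGB4-high libraries, with a log2 fold change of -1.54 (SE 0.38; adjusted p = 0.00198, edgeR). Neither gene had overlapping groups. DTX3L stood at 91.9, 87.6 and 87.8 CPM in ITGB4-low libraries, against 136 and 145 CPM in ITGB4-high libraries, with a log2 fold change of -0.66 (SE 0.05; adjusted p = 5.90e-10, edgeR). The other tested genes within 5 Mb of DTX3L on chromosome 3 had a median log2 fold change of -0.40 in the same comparison, and PARP14 in the same stretch was lower by a log2 fold change of -0.66. IFIH1, OAS3 and DDX60 had log2 fold changes of -0.89, -0.74 and -0.33. BST2 (tetherin), which holds budding virions at the cell surface, stood at 105, 109 and 108 CPM in ITGB4-low libraries, against 124 and 118 CPM in ITGB4-high libraries, with a log2 fold change of -0.18 (SE 0.05; adjusted p = 0.00324, edgeR). Around BST2, the other tested genes within 5 Mb had a median log2 fold change of -0.14. DDX58 ran the other way from its fellow sensors, with a log2 fold change of 0.58.

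Set beside ITGB4-high cells, which had about the same ITGB4 level, lung-recovered cells had 19 of the 38 genes (50%) higher, where 26.2% of all tested genes were, and 5 (13.2%) lower, where 25.0% were (edgeR, Benjamini-Hochberg adjusted). The median log2 fold change was 0.35 over the 38 genes and 0.0051 over all tested genes. The comparison shares its lung-recovered libraries with the first and its ITGB4-high libraries with the second, so its values are given side by side and not as further evidence. XAF1 had 1053 counts over the lung-recovered libraries against 1 count over the ITGB4-high libraries, a ratio of 768 with an exact 95% counting interval of 138 to 30350. MX2 had 48 counts against 1, a ratio of 35.0 with an interval of 5.99 to 1411.

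For the remaining genes the log2 fold changes of lung-recovered against ITGB4-high cells were 3.46 for OAS2, 1.71 for IFI27, 1.48 for OASL and 1.40 for IFITM1. IFIT1, IFIT2, IFIT3 and USP18, which were not called between lung-recovered and ITGB4-low cells, had log2 fold changes of 3.01, 2.14, 1.87 and 1.52 against ITGB4-high cells. TRIM22 had a log2 fold change of 0.002 (SE 0.16; adjusted p = 0.992, edgeR) and OAS3 of -0.08 (edgeR adjusted p = 0.345), so for both the lung-recovered level lay near the ITGB4-high level and above the ITGB4-low level. The 5 lower genes were DTX3L, PARP14, DDX60, IFIH1 and BST2, with log2 fold changes from -0.61 to -0.17. The other tested genes within 5 Mb had medians of -0.37 around DTX3L and -0.35 around PARP14. The medians were -0.06 around BST2, 0.03 around DDX60 and 0.27 around IFIH1. Without ITGB4-high library 1 the calls of BST2 (edgeR adjusted p = 0.0528) and IFIH1 (0.0607) were lost, and that of IFIH1 was lost under 6 alternatives in all. Among the higher genes, IRF7 (edgeR adjusted p = 0.141) and ISG20 (0.139) lost their call without ITGB4-high library 2. In 25 of the 38 genes the values of the 2 groups did not overlap, as in 66.8% of all tested genes.

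Levels of different genes were set side by side per length, as mean CPM per kilobase of exon. Over the 8 libraries, IFITM3 was highest at 168 CPM per kb, followed by BST2 at 99.2, IFITM1 at 41.8, IFITM2 at 35.7, DTX3L at 17.6 and UBE2L6 at 15.6. Within groups this order held for IFITM3 and BST2. IFITM1 stood at 68.7 CPM per kb and IFITM2 at 41.0 in lung-recovered cells, but IFITM1 at 25.3 and IFITM2 at 35.4 in ITGB4-low cells, and IFITM1 at 26.01 and IFITM2 at 28.1 in ITGB4-high cells. UBE2L6 stood at 16.1 CPM per kb and DTX3L at 15.7 in lung-recovered cells, UBE2L6 at 15.6 and DTX3L at 15.2 in ITGB4-low cells, and UBE2L6 at 14.7 and DTX3L at 23.95 in ITGB4-high cells. No test was made between genes. Those 6 genes were at 10 CPM per kb or more, 18 lay between 1 and 10, and 20 lay under 1. XAF1 reached 2.21 CPM per kb in lung-recovered cells, against 0.0303 in ITGB4-low cells, and OAS2 1.05 against 0.0868. Both genes were among the 20 that lay under 1 over the 8 libraries.

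The list of interferons, receptors, signalling and induction genes held 48 genes, of which 37 were tested. All 9 interferon genes on it (IFNB1, IFNA1, IFNA2, IFNE, IFNK, IFNG, IFNL1, IFNL2 and IFNL3) had 0 counts in all 8 libraries. A count of 0 allows up to 0.113 to 0.146 CPM a library. Interferon made by mouse cells was not measured. In lung-recovered against ITGB4-low cells, 13 of the 37 (35.1%) were higher and 2 (5.41%) were lower, where 14.7% and 15.4% of all tested genes were, with a median log2 fold change of 0.09 (edgeR, Benjamini-Hochberg adjusted).

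Of the receptors, IFNLR1 (IFN-lambda receptor) stood at 2.40, 2.32 and 3.31 CPM in lung-recovered libraries, against 1.80, 1.55 and 1.17 CPM in ITGB4-low libraries, a log2 fold change of 0.86 (edgeR adjusted p = 0.00532), a call lost without lung-recovered library 3 (0.0571). IFNGR2, the signalling chain of the IFN-gamma receptor, stood at 70.4, 71.9 and 69.4 CPM in lung-recovered libraries, against 47.8, 47.5 and 46.8 CPM in ITGB4-low libraries, a log2 fold change of 0.58 (edgeR adjusted p = 7.78e-09). In both the lung-recovered libraries were all on top. IFNAR1 and IFNAR2, the type I receptor chains, had log2 fold changes of 0.03 and 0.12 and were not called. JAK1, the kinase shared by all 3 interferon types, stood at 181, 171 and 173 CPM in lung-recovered libraries, against 264, 265 and 271 CPM in ITGB4-low libraries, a log2 fold change of -0.61 (edgeR adjusted p = 5.16e-10).

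STAT2, the ISGF3 subunit, stood at 28.3, 29.6 and 28.4 CPM in lung-recovered libraries, against 27.3, 32.5 and 33.5 CPM in ITGB4-low libraries. The groups overlapped, and the log2 fold change of -0.12 was not called (edgeR adjusted p = 0.228). Of the induction genes, IRF3 was higher by 0.35 on the log2 scale (edgeR adjusted p = 7.55e-05) and BATF2, an interferon-induced AP-1 family factor, by 0.90 (edgeR adjusted p = 0.00554).

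**Figure D5:**
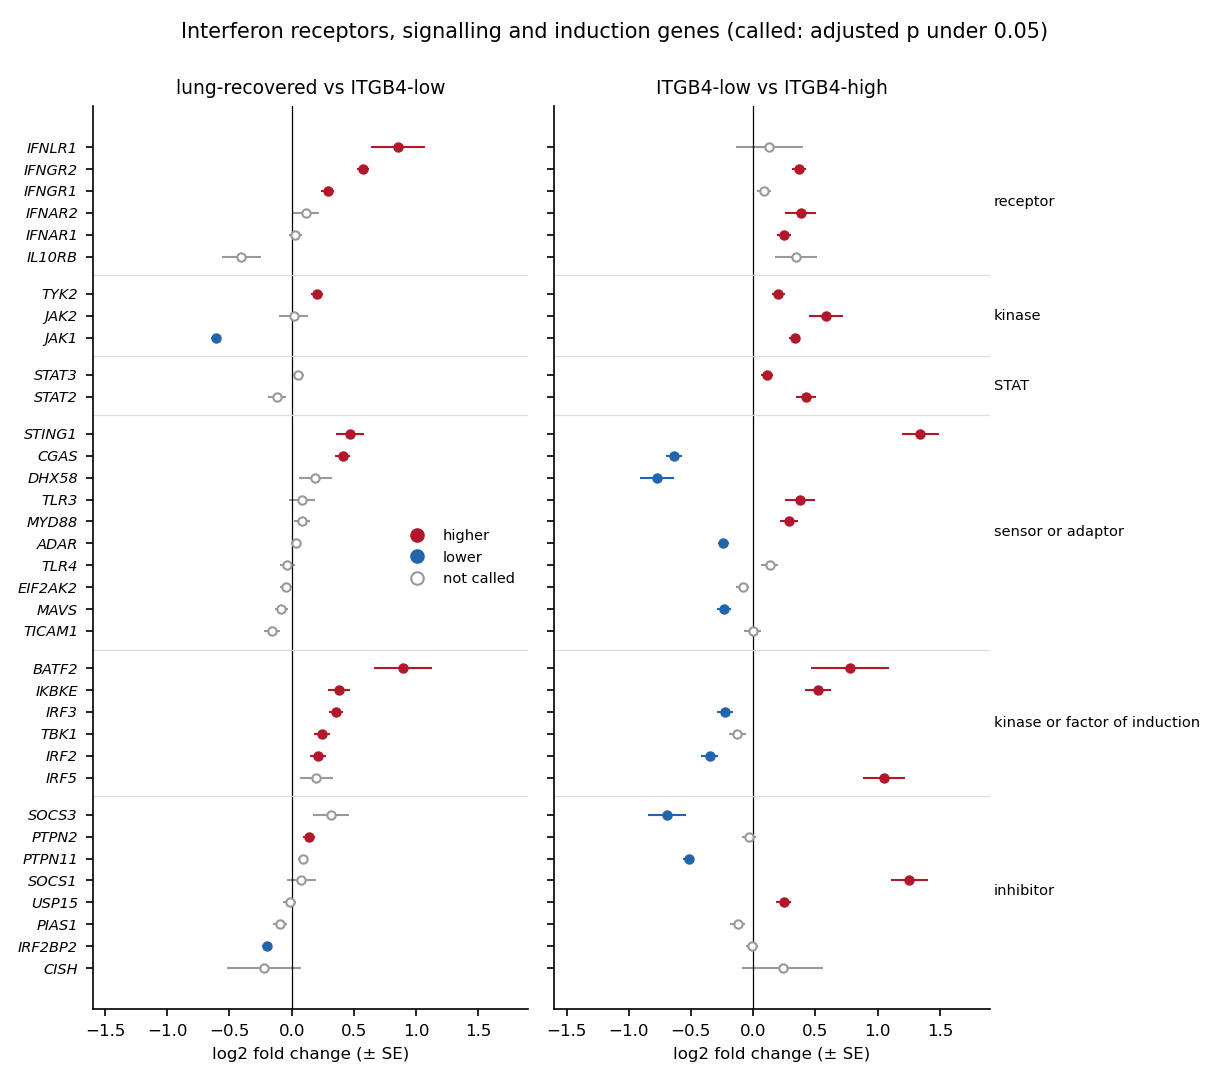
Log2 fold change (point) with its standard error (line) of 35 of the 37 tested genes of interferon receptors, signalling and induction, in lung-recovered against ITGB4-low cells (left) and ITGB4-low against ITGB4-high cells (right); red, higher; blue, lower; open, not called. JAK1 at -0.61 is the leftmost point on the left, and STING1 at 1.34 the rightmost on the right.

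In ITGB4-low against ITGB4-high cells, 17 of the 37 (45.9%) were higher and 8 (21.6%) lower, where 28.6% and 27.6% of all tested genes were, with a median log2 fold change of 0.13 (edgeR, Benjamini-Hochberg adjusted). STING1, the adaptor of cytosolic DNA sensing, stood at 8.06, 10.6 and 9.82 CPM in ITGB4-low libraries, against 3.43 and 4.09 CPM in ITGB4-high libraries, a log2 fold change of 1.34 (edgeR adjusted p = 2.42e-07). CGAS, the DNA sensor that makes the ligand of STING1, ran the other way with a log2 fold change of -0.64. SOCS1, a feedback inhibitor of JAK kinases, was higher by 1.25 on the log2 scale and IRF5 by 1.05, followed by BATF2 at 0.78, a call lost under 8 alternatives (edgeR adjusted p = 0.252 without ITGB4-high library 2), JAK2 at 0.59 and IKBKE, a kinase of IRF3, at 0.52. The RIG-I-like receptor DHX58, the inhibitor SOCS3 and the phosphatase PTPN11 had log2 fold changes of -0.77, -0.69 and -0.52. IFNAR2, STAT2 and IFNAR1 were higher by 0.38, 0.42 and 0.25, and IRF3 was lower, with a log2 fold change of -0.23. The calls of IFNAR2 without ITGB4-high library 2 (edgeR adjusted p = 0.157) and IRF3 without ITGB4-high library 1 (0.133) were lost. In lung-recovered against ITGB4-high cells, 19 of the 37 (51.4%) were higher, where 26.2% of all tested genes were, and 10 (27.0%) lower, where 25.0% were, so the lower share was near that of the whole table. The median log2 fold change was 0.17 over the 37 genes and 0.0051 over all tested genes.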

How the data were processed

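The deposited values are raw counts of reads per Ensembl gene, whole numbers made by the authors and not normalised, in 1 column for each of 8 libraries. Libraries were polyadenylated and strand-marked by dUTP, per the labels' protocols. Reads were aligned with STAR 2.7.1a to hg38, per the submitters' processing notes; no source used here gives the counting program, its strand setting or the annotation release, so counts of overlapping, antisense or near-identical genes are uncertain. Symbols and coordinates came from GENCODE release 29, which matched 58216 of 58336 identifiers.

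A single model with group terms was fitted to all 8 libraries (edgeR 4.0.16, R 4.3.3), with TMM scaling (factors 0.975 to 1.012) and filterByExpr, which left 15220 genes. The quasi-likelihood F test was used, with Benjamini-Hochberg adjustment over these genes. Standard errors were obtained from the log2 fold change and its F statistic (absolute change over the root of F). Levels are TMM-scaled CPM. The code was tested on simulated data. Intervals and limits of 0 counts (3 counts) do not cover more than counting error, as the protocols name no molecular identifiers. The titles call the libraries biological replicates, but which cultures or animals gave them is not in the labels. The p-values thus reflect the spread among these libraries, which may be technical.

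The genes and lists were chosen with earlier results of these data known. Values in every library and tests are given for genes called at 2-fold or more between lung-recovered and ITGB4-low or between ITGB4-low and ITGB4-high cells, for genes lower in lung-recovered cells and for the 3 with the highest mean CPM, not divided by length; of the pathway list, for genes called with a log2 fold change of at least 0.5 and a few central ones; some genes of that list are counted but not reported here. Alternatives were RLE and upper-quartile scaling, no filter, at least 1 CPM in 2 libraries, DESeq2 1.42.0, limma 3.58.1 (voom), only the groups compared, a replicate block, leaving out each library, and a stricter ISRE form.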

Additional observations from a re-analysis of the deposited data

How the results depend on the processing

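Called genes of the list in all 3 comparisons, and the named pathway genes in the first 2, were refitted 1109 times under the alternatives. None reversed, 1064 refits kept the call and 45 lost it. Refits in which the filter removed the gene are not among the 1109. MX2 was removed by the filter of at least 1 CPM in 2 libraries. In ITGB4-low against ITGB4-high cells, MX2 and XAF1 were both removed with only the groups compared. In lung-recovered against ITGB4-low cells 18 refits lost it (GBP3, MX2, PARP14, IFITM2 and IFNLR1), in ITGB4-low against ITGB4-high cells 18 (BATF2, ISG15, XAF1, MX2, IFIT5, IFNAR2 and IRF3), and in lung-recovered against ITGB4-high cells 9 (IFIH1, BST2, IRF7 and ISG20). The number of genes lower in lung-recovered against ITGB4-high cells was 3 without ITGB4-high library 1, against 5 with it. The ISRE core with 1 more A stood in 4.38% of all promoters and in 25 of the 35 genes, against 9.86% and 26 for the core used. Leaving out 1 library at a time gave 11 to 14 genes higher and 2 to 4 lower in lung-recovered against ITGB4-low cells, 13 to 17 higher and 8 to 9 lower in ITGB4-low against ITGB4-high cells, and 17 to 19 higher and 3 to 5 lower in lung-recovered against ITGB4-high cells. The labels do not say whether the replicate numbers of the titles pair the libraries. Deviations of same-numbered lung-recovered and ITGB4-low libraries from their group means correlated at 0.0052, 0.040 and 0.013 across genes. With 3 libraries behind each mean, these correlations cannot decide whether libraries shared a culture or a day. With a replicate block, 14 genes were higher and 2 lower in lung-recovered against ITGB4-low cells, 14 higher and 8 lower in ITGB4-low against ITGB4-high cells, and 19 higher and 4 lower in lung-recovered against ITGB4-high cells; the block moved the ISG15 call to an edgeR adjusted p of 0.0646 in ITGB4-low against ITGB4-high cells. Low counts limit RSAD2, HERC5, OAS1, CMPK2, EPSTI1 and IRF9, which were too low to test. For IRF9 the overlap with AL136295.5 on the same strand leaves the counts uncertain as well. The ITGB4-high side rests on 2 libraries.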
